A study of Mus musculus with 72 samples.

Results

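The final 12 h of a serum-shock time course in cultured mouse macrophages were examined by comparing the 9 libraries taken at 58, 60 and 62 h after the shock with the 9 taken at 46, 48 and 50 h, which makes 18 of the 72 libraries of the series. The members were chosen by the time point that labels each library, and this interval was picked for study with earlier results of these data known. All cells were bone-marrow-derived macrophages from male C57BL/6 mice of 3 to 6 months that carry Per2::Luc, a luciferase reporter in the Per2 clock gene, and all had been differentiated with M-CSF for 6 days and exposed to the same serum shock. Each time point has 1 library from each of 3 replicate time courses, so each window holds 3 libraries per course. Whether the 3 courses stem from different animals or cultures is not labelled. The p-values measure the spread between the 9 libraries of a window, which may be technical. That spread also holds differences between courses and change over the 3 time points of a window. A gene whose level moves within a window can therefore miss the threshold. Cultures without serum shock were not analysed here, so clock phase and time since the shock cannot be told apart.

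The circadian clock of mammalian cells is a feedback loop in which the activators CLOCK and BMAL1 bind E-box sequences and switch on their own repressors, the PER and CRY proteins, together with the REV-ERB repressors of Bmal1. A serum shock brings the clocks of a culture into step, after which the rhythm runs on while cells slowly drift apart. In macrophages the clock is known to time cytokine output, phagocytosis and metabolism. The windows lie 12 h apart, on opposite sides of a 24 h cycle, and the comparison asks which transcripts differed between those sides at the end of the series.

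Total RNA was sequenced after removal of ribosomal RNA, and counts per gene were analysed. The 58 to 62 h libraries held 49465216 to 67839053 assigned counts (median 57906633) and the 46 to 50 h libraries 48921460 to 67010013 (median 54100938). Levels are given as CPM, read counts scaled to the TMM-adjusted library size, and are not divided by gene length, so levels of different genes are not compared. The macrophage label was checked with 10 markers, which summed to 21600 to 28110 CPM at 58 to 62 h and 25040 to 28720 CPM at 46 to 50 h. Their most abundant member, the lysozyme gene Lyz2, had 13010, 14930 and 18190 CPM (lowest, median, highest) at 58 to 62 h and 15230, 16000 and 16970 CPM at 46 to 50 h. The 15 fibroblast and stromal markers summed to 9.01 to 160.9 CPM at 58 to 62 h and 39.4 to 479.9 CPM at 46 to 50 h. Col1a2 had the highest medians among them, 35.2 CPM at 58 to 62 h and 43.9 CPM at 46 to 50 h. Only Lum and Thy1 had a median of 0 in both windows.

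Libraries within a window were not equally alike. Course 2 at 60 h lay 0.82 (root mean square of log2 differences) from the median of its window, against 0.25 to 0.36 for the other 8 libraries at 58 to 62 h and 0.24 to 0.44 for the 9 at 46 to 50 h. It also held the lowest stromal sum, 9.01 CPM, and the highest endothelial sum, 275.0 CPM against 58.4 to 167.6 CPM in the other libraries at 58 to 62 h. Few members made up the endothelial sums. At 58 to 62 h Vwf reached 204 CPM, Kdr 63.2 CPM and Eng 16.5 CPM, while Pecam1, Cdh5, Tek, Emcn and Cldn5 reached at most 2.21 CPM. Course 1 at 62 h, the other library without which each result was repeated, lay at 0.35, within the range of its window. Both libraries had been named as deviating in these data before the comparison. The typical spread between libraries of a window (median SD of log2 CPM) was 0.15 in course 1, 0.23 in course 2 and 0.11 in course 3.

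At 58 to 62 h, clock repressors and many genes of cell division, histones, glycolysis and ribosomal proteins were lower than at 46 to 50 h. Part of the genes of ribosome assembly and of protein folding in the endoplasmic reticulum were higher. Single genes were higher too, 3 for chemokines and 2 for scavenger receptors. In the inflammatory list, which holds these chemokine genes, 3 genes fell. Most members of the inflammatory and scavenger receptor lists were not called. Of 15614 genes tested, 515 rose (3.3%) and 599 fell (3.84%), together 1114 or 7.13%, by edgeR's quasi-likelihood test with Benjamini-Hochberg adjustment at 0.05. Among these genes, 43 rises and 157 falls reached 1.5-fold, and 8 rises and 44 falls reached 2-fold. The median change of the genes that rose was 0.26 and of those that fell -0.36 (log2, 58 to 62 h over 46 to 50 h), against 0.01 for all genes tested. In RNA from a whole culture, fewer cells of a type and less RNA per cell cannot be told apart.

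The courses shared the direction of these changes, but the number of calls leaned on course 3. The mean difference had the same sign in each course for 1111 of the 1114 genes (99.7%), against 49.5% of all genes tested, though calls and signs come from the same libraries. Without course 3, 8 genes were called, and course 3 alone gave 2488 calls while courses 1 and 2 alone gave 0 each by edgeR (945 and 696 genes at an unadjusted p under 0.05). Without course 1, 409 genes were called, and without course 2, 1115. Leaving out both course 2 at 60 h and course 1 at 62 h gave 2066 calls (956 or 6.04% rose, 1110 or 7.01% fell), 1082 of them among the 1114. Leaving out course 1 at 62 h alone gave 1905 calls and course 2 at 60 h alone 1397. With the 3 libraries of a course and window summed, 3 sums stood against 3. Without a block for the course, the genes called were Dbp, Mki67, Msr1, Nr1d2, Per1, Tef and Tgfbi. With the course as a block, the same sums gave 825 calls (403 rises and 422 falls). Of the gene lists described here, the repressor list kept 2 calls and the list of clock outputs 2 without course 3, while the division, histone, glycolysis, ribosome and chaperone lists had 0.

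The repressor arm of the clock was lower at 58 to 62 h. Of 9 tested members of the repressor list, 6 fell and 0 rose, with a list median of -0.72 (log2) against 0.01 for all genes tested, and course medians of -0.68, -0.58 and -0.83 in courses 1, 2 and 3. Nr1d2, which encodes the repressor REV-ERBβ, had 64.1, 74.0 and 90.5 CPM at 58 to 62 h and 116, 126 and 149.9 CPM at 46 to 50 h (lowest, median and highest of 9). The windows did not overlap, and the fitted change was -0.76 ± 0.06 (log2, SE; adjusted p = 8.45e-07). Per1, a period gene that represses CLOCK and BMAL1, had 11.8, 13.0 and 15.1 CPM at 58 to 62 h and 19.1, 21.1 and 27.0 CPM at 46 to 50 h, again without overlap, a change of -0.72 ± 0.07 (adjusted p = 6.01e-06). Both genes were also called with any one course left out.

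The other repressors that fell were Nr1d1, Cry2, Per2 and Ciart. Nr1d1, the REV-ERBα gene, had 4.57, 8.52 and 10 CPM at 58 to 62 h and 11.6, 16.2 and 18.6 CPM at 46 to 50 h, a change of -0.95 ± 0.13 (adjusted p = 0.000835). Cry2, a cryptochrome that binds and silences CLOCK and BMAL1, had 2.90, 4.09 and 4.99 CPM at 58 to 62 h and 5.64, 6.16 and 7.55 CPM at 46 to 50 h, a change of -0.63 ± 0.10 (adjusted p = 0.00212). The windows overlapped for neither gene. In all, 33 genes lay lower in each of the 9 libraries at 58 to 62 h than in any at 46 to 50 h (0.211% of those tested) and 27 lay higher (0.173%), and 4 of the 9 repressors were among the 33.

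Per2, the gene with the reporter, had 1.58, 2.88 and 4.42 CPM at 58 to 62 h and 3.36, 6.48 and 8.59 CPM at 46 to 50 h. The overlap came from the 46 h library of course 2, the lowest of its window, and the change was -0.98 ± 0.21 (adjusted p = 0.00942). Ciart, a repressor of CLOCK and BMAL1 activity, had 0.706, 0.807 and 2.54 CPM at 58 to 62 h and 1.17, 1.80 and 2.33 CPM at 46 to 50 h. Its highest value came from course 2 at 60 h, and the change was -0.83 ± 0.22 (adjusted p = 0.032), or -1.07 without course 2 at 60 h and course 1 at 62 h. Cry1, the other cryptochrome, lay higher by 0.53 ± 0.16 and did not pass (adjusted p = 0.0571). The E-box-binding repressors Bhlhe40 and Bhlhe41 differed by 0.20 ± 0.45 and 0.44 ± 0.28 and did not pass (adjusted p = 0.812 and 0.352), and Per3 was too low to be tested.

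The promoters of Per1 and Ciart are shown because they hold the E-box CACGTG, to which CLOCK and BMAL1 are known to bind. Each runs from 250 bases before to 50 bases after the RefSeq gene start (GRCm38.p6), 5′ to 3′ on the gene's strand, with E-boxes in capitals. Per1 lies at chr11:69098699-69098998 on the plus strand, and its E-box starts at -166 from the gene start. Ciart lies at chr3:95882179-95882478 on the minus strand, with E-boxes at -116, -58 and -44.
Per1: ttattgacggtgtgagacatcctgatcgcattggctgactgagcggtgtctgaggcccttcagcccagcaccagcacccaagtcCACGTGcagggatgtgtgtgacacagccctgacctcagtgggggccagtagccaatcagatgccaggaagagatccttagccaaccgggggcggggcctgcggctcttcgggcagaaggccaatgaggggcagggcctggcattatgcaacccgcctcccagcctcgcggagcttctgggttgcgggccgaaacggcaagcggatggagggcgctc
Ciart: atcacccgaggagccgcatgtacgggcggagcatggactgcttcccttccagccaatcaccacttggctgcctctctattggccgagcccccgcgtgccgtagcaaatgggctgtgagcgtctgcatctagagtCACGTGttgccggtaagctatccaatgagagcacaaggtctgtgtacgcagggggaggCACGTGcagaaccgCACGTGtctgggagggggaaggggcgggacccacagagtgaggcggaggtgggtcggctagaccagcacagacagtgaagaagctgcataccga
Of the 5 fallen repressors with a promoter in the RefSeq table, these 2 held the letters CACGTG, which read the same on both strands. The repressors Cry1 and Bhlhe41, which lay higher without passing, held the letters too. So did 2 of 15 fallen genes of the glycolysis list. Of 32851 mouse promoters of this length, 7.15% held them, and of 27025 genes 8.09% held them in any promoter. The D-box (TTATGTAA or TTATGCAA, either strand), bound by DBP and TEF, was found in 1 of the 5 fallen repressors, Per1, against 1.66% of promoters. A second RefSeq promoter of Per1 (chr11:69099902-69100201) held 0 E-boxes and 0 D-boxes. A match describes the sequence only.

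The activators of the clock had 1 call. Of 8 tested activators and clock kinases 1 rose and 0 fell, with a list median of 0.09 (log2). The riser was Npas2, the paralog of CLOCK, with 1.40, 2.25 and 3.20 CPM at 58 to 62 h and 0.912, 1.66 and 2.09 CPM at 46 to 50 h, a change of 0.57 ± 0.17 (adjusted p = 0.044) that did not pass without course 2 at 60 h and course 1 at 62 h (adjusted p = 0.0833). Arntl, the BMAL1 gene, had 17.7, 32.3 and 40.7 CPM at 58 to 62 h and 15.1, 25.5 and 30.2 CPM at 46 to 50 h. Its windows overlapped, and its difference of 0.32 ± 0.14 did not pass (adjusted p = 0.163), though it was positive in each course (0.37, 0.29 and 0.27). Clock differed by 0.23 ± 0.07 and did not pass (adjusted p = 0.0611). The differences of Rora, of the kinases Csnk1d and Csnk1e and of the ubiquitin ligase gene Fbxl21 lay between -0.53 for Fbxl21 and 0.06 for Csnk1e, and none passed.

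Among clock outputs, PAR bZIP transcription factors fell furthest. Dbp, the D-box activator that CLOCK and BMAL1 drive (GRCm38 chr7:45705088-45710203, plus strand), had 48.6, 59.7 and 69.9 CPM at 58 to 62 h and 113, 131 and 149.8 CPM at 46 to 50 h. All 9 later libraries lay well below all 9 earlier ones, and the change of -1.10 ± 0.07 (adjusted p = 2.83e-08) was of like size in the courses (-1.02, -1.18 and -1.13). Tef, another PAR bZIP factor, had 71.1, 86.4 and 99.9 CPM at 58 to 62 h and 126, 138 and 159 CPM at 46 to 50 h, a change of -0.70 ± 0.06 (adjusted p = 3.73e-06) with no overlap. Tsc22d3, which encodes the glucocorticoid-induced protein GILZ, changed by -0.49 ± 0.09 (adjusted p = 0.00293). The other 6 of 9 tested outputs did not pass: the D-box repressor gene Nfil3 differed by 0.43 ± 0.17, Usp2 by 0.56 ± 0.32, Por by 0.38 ± 0.21, Nampt by 0.16 ± 0.16, Wee1 by 0.06 ± 0.24 and Klf9 by -0.24 ± 0.12. Exons of Dbp, Nr1d1, Tef, Cry2 and Arntl overlap those of Sphk2, Thra, Gm17597, D930015M05Rik and Gm45355 on the other strand, and since no source used here says whether strand was counted, reads of each pair cannot be told apart.

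**Figure D1:**
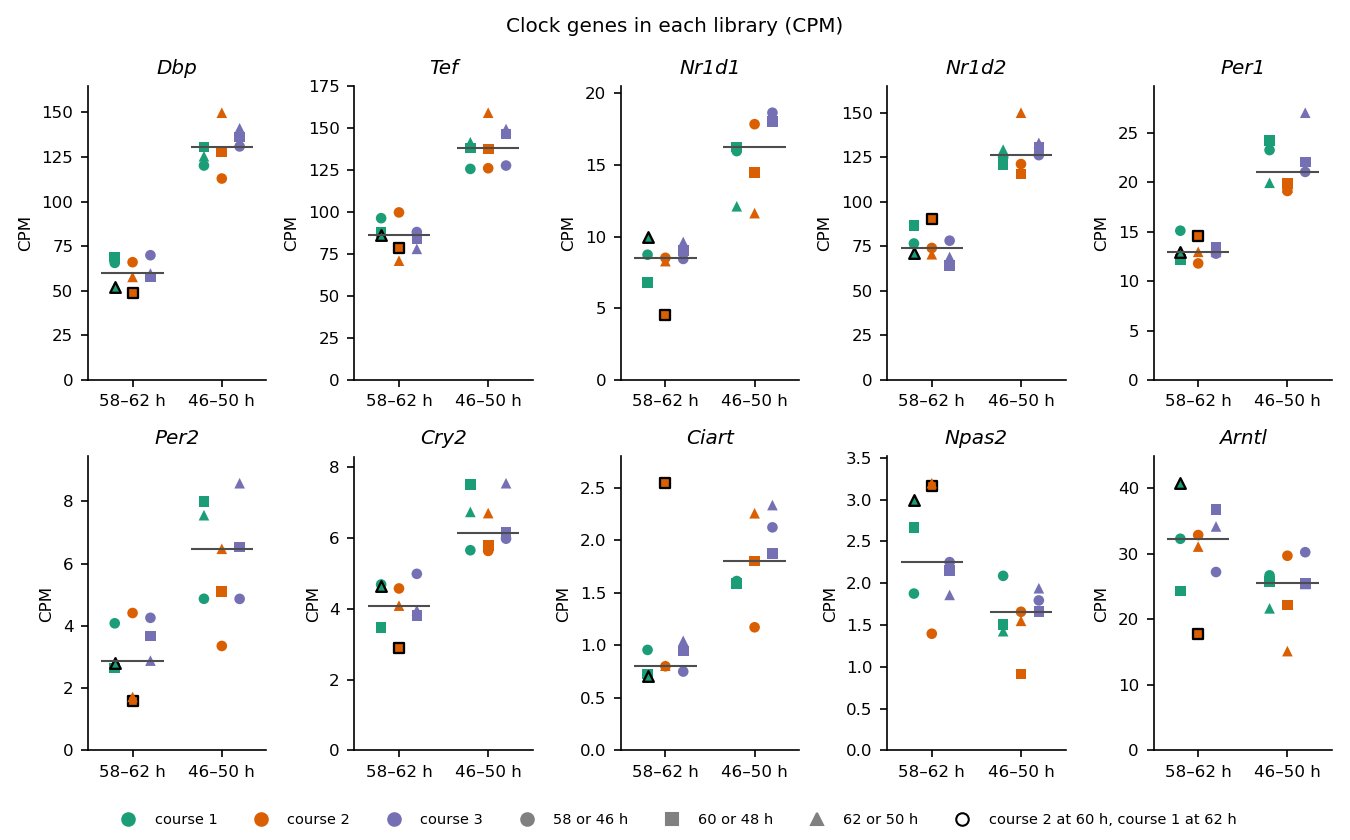
Level of 10 clock genes in each of the 18 libraries (y axis, CPM from 0; x axis, window), with colour for the course, symbol for the time point, a line at the window median and black outlines for course 2 at 60 h and course 1 at 62 h. For Dbp, Tef, Nr1d1, Nr1d2, Per1 and Cry2 all 9 points at 58 to 62 h lie below all 9 at 46 to 50 h, while the windows of Arntl overlap.

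Genes of cell division were lower at 58 to 62 h. Of 24 tested G2 and M phase genes 18 fell and 0 rose, with a median of -0.72 (log2) and course medians of -0.66, -0.83 and -0.77. Kif11, the kinesin that pushes spindle poles apart, had 3.50, 3.81 and 6.90 CPM at 58 to 62 h and 4.78, 9.20 and 10.8 CPM at 46 to 50 h, a change of -0.92 ± 0.17 (adjusted p = 0.00437). The overlap came from course 1 at 60 h, the highest later library, which lay above the 3 libraries at 48 h and 1 at 46 h. Cenpf, a kinetochore protein gene, changed by -1.56 ± 0.27 (adjusted p = 0.00292), and Ube2c, a ubiquitin-conjugating partner of the anaphase-promoting complex, by -1.71 ± 0.32 (adjusted p = 0.0047). Cdc20, which activates that complex, had 1.37, 2.502 and 5.19 CPM at 58 to 62 h and 2.33, 6.89 and 8.58 CPM at 46 to 50 h, a change of -1.05 ± 0.26 (adjusted p = 0.023). Bub1b, of the spindle checkpoint, changed by -0.56 ± 0.11 (adjusted p = 0.00532), and Aspm, a spindle-pole protein gene outside the list, by -1.58 ± 0.34 (adjusted p = 0.00981).

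The levels of these genes were not steady within 46 to 50 h. The mean of the G2 and M phase list, relative to its mean over the 46 to 50 h libraries, was 0.20 ± 0.20 at 46 h, -0.58 ± 0.07 at 48 h and 0.39 ± 0.14 at 50 h (log2, SD, n = 3), and 48 h was lowest in each course. At 58, 60 and 62 h it was -0.90 ± 0.19, -0.66 ± 0.54 and -0.96 ± 0.16. Kif11 averaged 8.81 ± 1.98 CPM at 46 h, 5.34 ± 0.81 CPM at 48 h and 9.76 ± 0.87 CPM at 50 h. Without the 3 libraries at 48 h, a choice made after seeing these values, 23 of the 24 genes fell with a median of -0.97, while 809 genes were called over the whole table. Since 48 h was lowest, leaving it out makes the fall of this list larger, so the lower median is no result.

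Histone genes used in DNA replication fell as well, 11 of 15 with 0 rising and a median of -0.64 (log2). Hist1h3c, a histone H3 gene, had 1.30, 1.71 and 2.60 CPM at 58 to 62 h and 2.65, 3.87 and 5.93 CPM at 46 to 50 h, without overlap, a change of -1.14 ± 0.16 (adjusted p = 0.00101). Hist1h2ab, Hist2h3b and Hist1h4d changed by -0.65 ± 0.12, -0.64 ± 0.13 and -0.45 ± 0.09. These paralogs are near-identical in sequence, and the level of a single one is uncertain. In the S phase list 3 of 23 genes fell and 0 rose, with a median of -0.12: the replication licensing genes Cdc6 (-0.49 ± 0.10) and Mcm7 (-0.23 ± 0.07), and Rrm1, the large subunit of ribonucleotide reductase (-0.15 ± 0.04). Among 17 G1 cyclins and cell cycle inhibitors 3 fell and 1 rose (median -0.17). E2f1, an activator of S phase genes, the inhibitor gene Cdkn2c and the cyclin gene Ccng2 changed by -0.29 ± 0.05, -0.34 ± 0.06 and -0.38 ± 0.09, and Cdk6, a G1 kinase, by 0.31 ± 0.09.

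The promoters of Kif11 and Ube2c are shown because they hold TTTGAA, the cell cycle homology region through which late cell cycle genes are known to be silenced outside division. They are given like those of the clock genes, with the element in capitals. Kif11 lies at chr19:37376132-37376431 and Ube2c at chr2:164769679-164769978, both on the plus strand, with the element starting at -19 and -29 from the gene start.
Kif11: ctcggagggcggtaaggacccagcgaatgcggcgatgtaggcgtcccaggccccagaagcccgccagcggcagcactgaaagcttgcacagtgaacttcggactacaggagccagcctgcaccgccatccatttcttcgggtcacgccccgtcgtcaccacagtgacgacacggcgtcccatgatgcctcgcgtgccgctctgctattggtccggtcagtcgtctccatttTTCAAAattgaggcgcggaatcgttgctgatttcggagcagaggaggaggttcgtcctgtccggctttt
Ube2c: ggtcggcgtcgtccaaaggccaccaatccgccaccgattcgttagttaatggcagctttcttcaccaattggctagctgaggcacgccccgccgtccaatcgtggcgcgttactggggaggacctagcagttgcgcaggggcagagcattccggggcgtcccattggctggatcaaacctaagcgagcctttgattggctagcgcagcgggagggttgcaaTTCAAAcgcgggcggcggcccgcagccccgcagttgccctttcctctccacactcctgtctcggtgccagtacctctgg
The element was present on either strand in 11 of the 15 fallen G2 and M phase genes that have a promoter in the table, against 17.9% of 32851 promoters and 20.2% of 27025 genes. It was also present in 1 of 15 fallen glycolysis and HIF genes and in 0 of 5 fallen clock repressors. By their letters, the E-box, the D-box and this element cannot overlap each other. The histone genes had no entry in the table.

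Glycolysis and targets of HIF, the oxygen-sensing transcription factor, also fell. Of 21 tested genes 15 fell and 0 rose, with a median of -0.58 (log2) and course medians of -0.35, -0.52 and -0.72. Gpi1, the second enzyme of glycolysis, had 191, 213 and 359 CPM at 58 to 62 h and 267, 400.0 and 527 CPM at 46 to 50 h, a change of -0.78 ± 0.13 (adjusted p = 0.00266). Course 1 at 62 h was the highest later library and course 2 at 48 h the lowest earlier one. Eno1, the enolase gene, had 104, 120.2 and 165 CPM at 58 to 62 h and 118, 204 and 254 CPM at 46 to 50 h, a change of -0.63 ± 0.12 (adjusted p = 0.00533), and Pgk1, which makes the first ATP of the pathway, changed by -0.73 ± 0.16 (adjusted p = 0.0103). Bnip3, a mitophagy receptor gene that HIF induces, had 25.7, 39.0 and 70.1 CPM at 58 to 62 h and 41.2, 85.7 and 124 CPM at 46 to 50 h, a change of -0.95 ± 0.20 (adjusted p = 0.00922), again with course 1 at 62 h highest and course 2 at 48 h lowest.

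Further HIF targets changed more. Egln3, an oxygen-sensing prolyl hydroxylase, changed by -1.47 ± 0.39 (adjusted p = 0.0312), Ankrd37 by -1.09 ± 0.26 (adjusted p = 0.0177) and Ak4, an adenylate kinase gene outside the list, by -1.80 ± 0.32 (adjusted p = 0.00312). Lrp2bp changed by -1.25 ± 0.24 and shares exon sequence with Ankrd37 on the other strand, so the pair is not independent. Vegfa and Hk2, HIF targets named after their values were seen, differed by 0.01 ± 0.12 and -0.29 ± 0.16 and did not pass (adjusted p = 0.973 and 0.273). This list too was lowest at 48 h within its window in each course, at 0.11 ± 0.05 at 46 h, -0.39 ± 0.24 at 48 h and 0.27 ± 0.27 at 50 h, and it stood at -0.56 ± 0.23, -0.57 ± 0.04 and -0.45 ± 0.33 at 58, 60 and 62 h. Without 48 h, left out after seeing these values, 16 of the 21 fell and the median was -0.75. The larger fall follows from that choice and is no result. Exons of Gpi1, Bnip3, Cdc20 and Ube2c overlap other genes on the other strand.

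**Figure D2:**
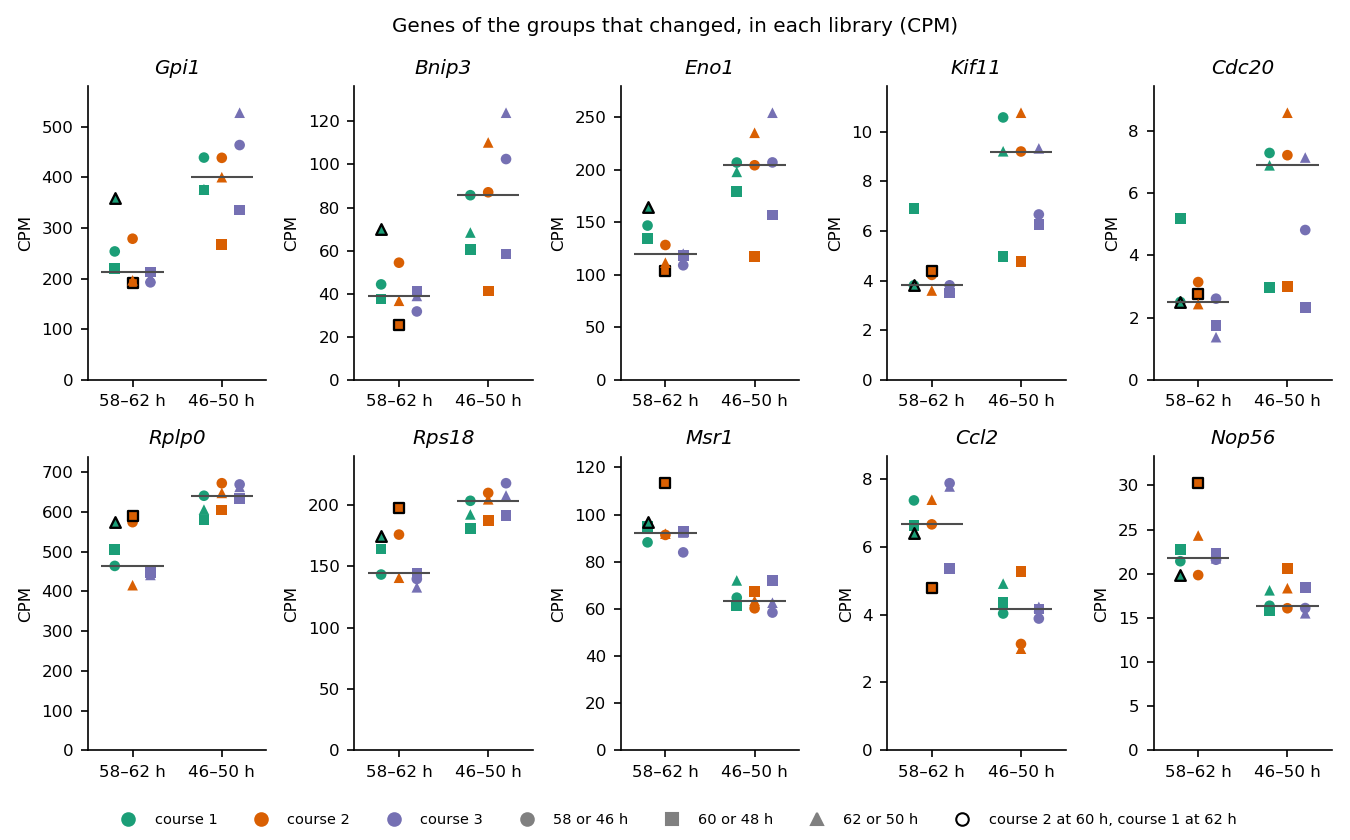
Level of 10 genes from the groups that changed, in each of the 18 libraries (y axis, CPM from 0; x axis, window), with colour for the course, symbol for the time point and a line at the window median. In Kif11, Cdc20, Bnip3 and Eno1 the squares at 46 to 50 h, which are the 48 h libraries, are the lowest of that window in each course, while all 9 values of Msr1 at 58 to 62 h lie above those at 46 to 50 h.

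Structural proteins of the ribosome and its assembly factors moved apart. Of 25 tested genes of cytosolic ribosomal proteins 11 fell and 0 rose, with a median of -0.21 (log2) and course medians of -0.14, -0.15 and -0.43. Rplp0, the ribosomal stalk protein gene, had 416, 464 and 590.0 CPM at 58 to 62 h and 580.0, 641 and 672 CPM at 46 to 50 h, a change of -0.36 ± 0.07 (adjusted p = 0.00532). Rpl11 and Rps18 changed by -0.46 ± 0.09 and -0.34 ± 0.07. Gas5, a noncoding host gene of small nucleolar RNAs, changed by -0.31 ± 0.08 (adjusted p = 0.0291) as the 1 call among 10 nuclear noncoding RNAs. Without course 2 at 60 h and course 1 at 62 h, 19 of the 25 ribosomal protein genes fell.

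Of 20 genes of ribosome biogenesis 8 rose and 0 fell, with a median of 0.21 (log2). Nop56, a core protein of box C/D ribonucleoproteins, had 19.8, 21.7 and 30.2 CPM at 58 to 62 h and 15.5, 16.4 and 20.6 CPM at 46 to 50 h, a change of 0.39 ± 0.07 (adjusted p = 0.0046) that was alike in the courses (0.35, 0.42 and 0.39). The windows overlapped slightly, and course 2 at 60 h was highest. Fbl, the methyltransferase fibrillarin, Bop1, a factor of large subunit maturation, and Polr1a, the largest subunit of RNA polymerase I, changed by 0.29 ± 0.08, 0.22 ± 0.06 and 0.16 ± 0.04. Exons of Nop56 hold small RNA genes of the same strand and overlap Idh3b on the other. Srm, the spermidine synthase gene, changed by 0.70 ± 0.20 (adjusted p = 0.0406) and Pinx1, a nucleolar telomerase inhibitor gene, by 0.65 ± 0.15 (adjusted p = 0.0139). Without course 2 at 60 h and course 1 at 62 h, 10 of the 20 rose and 2 fell, and without the 3 libraries at 48 h, 3 rose.

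Chaperone genes rose in part. In the unfolded protein response list 6 of 19 rose and 0 fell, with a median of 0.26 (log2). Hyou1, an endoplasmic reticulum chaperone gene, had 128, 158 and 464 CPM at 58 to 62 h and 95.8, 116 and 145 CPM at 46 to 50 h, a change of 0.66 ± 0.20 (adjusted p = 0.0498). The highest value came from course 2 at 60 h, and without it and course 1 at 62 h the change was 0.41 (adjusted p = 0.00354). That library was also the highest of its window for Pdia6 (455 CPM), Hsp90b1 (844 CPM), Pdia3 (155 CPM) and Dnajc3 (215 CPM), each a folding or quality control gene. Dnajc3 had 149, 156 and 215 CPM at 58 to 62 h and 129.9, 139 and 144 CPM at 46 to 50 h, without overlap, a change of 0.25 ± 0.06 (adjusted p = 0.0125). Hspa5, the chaperone BiP, named after its values were seen, reached 3782 CPM against a median of 931 CPM at 58 to 62 h and 839 CPM at 46 to 50 h, and its difference of 0.62 ± 0.24 did not pass (adjusted p = 0.126). Without the 2 libraries 8 of the 19 rose and 1 fell, and without the 3 at 48 h, 2 rose. Of 15 cytosolic heat shock chaperones 3 rose and 0 fell (median 0.16), Hspa4 by 0.22 ± 0.04, Hspa8 by 0.24 ± 0.06 and Dnaja1 by 0.16 ± 0.05.

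**Figure D3:**
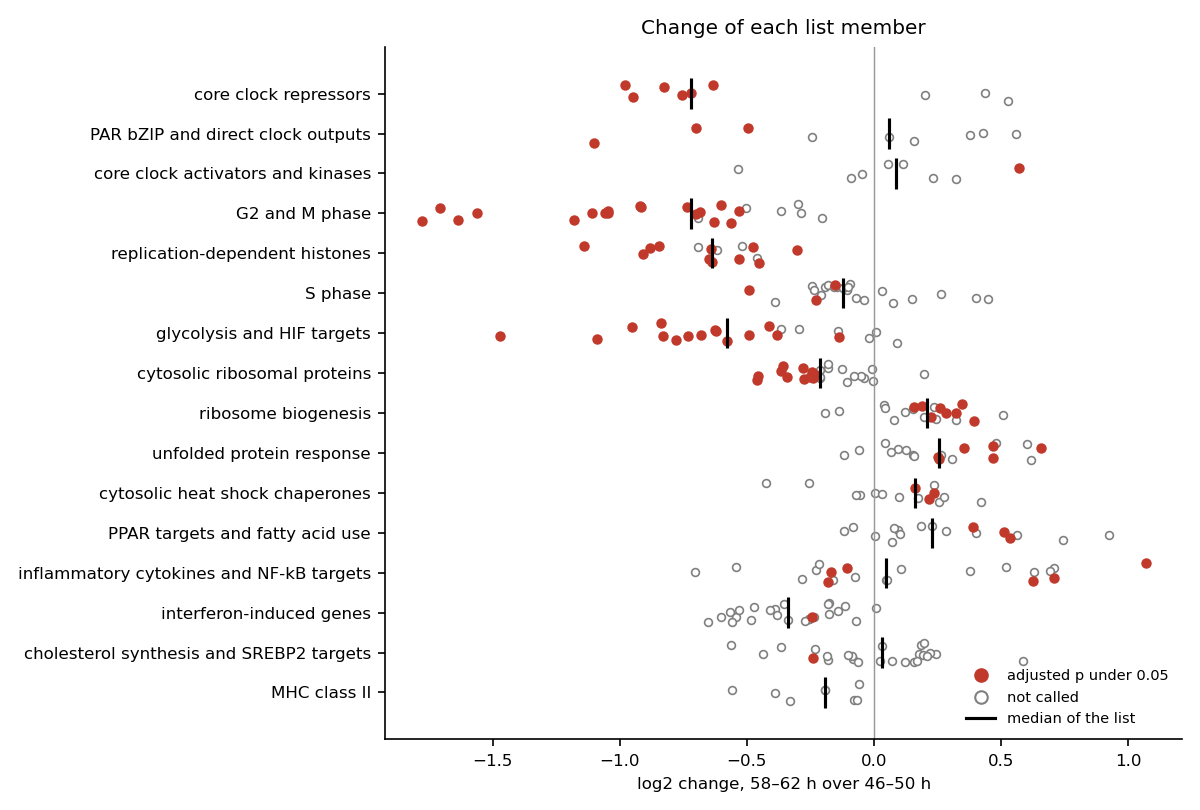
Change of each tested member of 16 gene lists (x axis, log2 of 58 to 62 h over 46 to 50 h; 1 point per gene), red where the adjusted p is under 0.05, with a black bar at the list median. Red points lie left of 0 in the G2 and M phase (18 of 24), histone (11 of 15), glycolysis (15 of 21) and ribosomal protein (11 of 25) lists and right of 0 in ribosome biogenesis (8 of 20) and the unfolded protein response (6 of 19).

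Among scavenger receptors, 2 genes were higher at 58 to 62 h. Msr1, the class A scavenger receptor that takes up modified lipoproteins (GRCm38 chr8:39581685-39642673, minus strand), had 84.0, 92.4 and 113 CPM at 58 to 62 h and 58.5, 63.5 and 72.2 CPM at 46 to 50 h. The windows did not overlap, the change was 0.54 ± 0.05 (adjusted p = 7.98e-06), and the gene was called with any one course left out. Cd36, the class B scavenger and fatty acid receptor, had 109, 142 and 286 CPM at 58 to 62 h and 76.3, 114 and 134 CPM at 46 to 50 h, a change of 0.51 ± 0.15 (adjusted p = 0.0486). Its highest value came from course 2 at 60 h. These were the 2 of 21 tested scavenger and pattern receptors that rose, and 0 fell, with a median of 0.01 (log2). Adgre1, the F4/80 marker, had 1170.0, 1260.0 and 1554 CPM at 58 to 62 h and 1433, 1617 and 1818 CPM at 46 to 50 h, a change of -0.30 ± 0.06 (adjusted p = 0.00942), and was the 1 of 10 macrophage markers called.

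The inflammatory list held 3 rises and 3 falls among 21 tested, with a median of 0.05 (log2). Ccl2, the monocyte attractant, had 4.79, 6.65 and 7.86 CPM at 58 to 62 h and 2.99, 4.16 and 5.27 CPM at 46 to 50 h, a change of 0.71 ± 0.12 (adjusted p = 0.00258). All later libraries but course 2 at 60 h lay above the highest earlier one. Ccl4 and Ccl3, attractants of T cells and monocytes, changed by 1.07 ± 0.27 (adjusted p = 0.0243) and 0.62 ± 0.18 (adjusted p = 0.0403). The NF-kB subunit genes Relb and Nfkb2 and the inhibitor gene Nfkbia, of which the last 2 were named after their values were seen, changed by -0.17 ± 0.05, -0.10 ± 0.03 and -0.18 ± 0.05. Tnf, named likewise, differed by 0.71 ± 0.22 and did not pass (adjusted p = 0.0584). Of 19 immediate early genes 1 rose, Egr2 by 0.95 ± 0.27, and 1 fell, Junb, with a change of -0.28 ± 0.06 (list median 0.27). Course 2 at 60 h had the highest value of Ccl4 (21.0 CPM) and of Egr2 (12.9 CPM).

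Of 25 interferon-induced genes 1 fell and 0 rose, with a median of -0.34 (log2) and course medians of -0.02, -0.22 and -0.64. The gene was Ifih1, a sensor of viral RNA, with a change of -0.24 ± 0.07 (adjusted p = 0.0332). In course 3 alone 22 of the 25 fell, and 1386 of all 15771 genes tested. In that fit the 3 time points of a window in a single course served as replicates. Differences of the change between courses were tested for each gene with edgeR, and 0 of 15614 passed (666 at an unadjusted p under 0.05, and 23 called with no filter on low counts). Of 8 MHC class II genes 0 were called, with a median of -0.19.

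Lipid genes held few calls. Plin2, the lipid droplet coat gene, had 1080.0, 1376 and 1950.0 CPM at 58 to 62 h and 788, 984 and 1267 CPM at 46 to 50 h, a change of 0.54 ± 0.12 (adjusted p = 0.0109). With Cd36 and Ppargc1b (0.39 ± 0.11), a coactivator of fatty acid oxidation, it made up the 3 rises among 17 PPAR targets and fatty acid genes (0 fell, median 0.23). With Mylip (0.33 ± 0.09), the ligase that degrades the LDL receptor, it made up the 2 rises among 9 LXR targets (0 fell, median 0.14). Lipa, the lysosomal acid lipase, changed by 0.28 ± 0.07 as the 1 call among 23 lysosomal genes (median 0.11). Fdft1, squalene synthase, whose exons overlap those of Ctsb, changed by -0.24 ± 0.06 as the 1 call among 25 cholesterol synthesis genes (median 0.03), and 0 of 13 fatty acid synthesis genes were called (median -0.11). Mgll, the monoacylglycerol lipase, had the largest rise under the naming rule at 1.72 ± 0.50 (adjusted p = 0.0432). It had 3.60, 11.1 and 53.2 CPM at 58 to 62 h and 1.44, 3.04 and 16.3 CPM at 46 to 50 h, and course 2 held the highest value of each window.

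In the TCA cycle list 3 of 16 rose and 0 fell (median 0.05, log2), Mdh2 by 0.25 ± 0.06, Ogdh by 0.21 ± 0.05 and Idh3a by 0.35 ± 0.09. Of 24 nuclear genes of oxidative phosphorylation 2 rose and 0 fell (median 0.05), both for cytochromes, Cycs by 0.60 ± 0.11 and Cyc1 by 0.26 ± 0.06. Without course 2 at 60 h and course 1 at 62 h, 3 rose and 1 fell in the TCA cycle list and 3 rose and 3 fell among the oxidative phosphorylation genes. The 11 tested RNAs of the mitochondrial genome had a median of 0.43 with 0 called and course medians of 0.14, 0.93 and 0.15. In the NRF2 list 2 of 16 rose and 0 fell (median 0.04), Gsr by 0.23 ± 0.05 and Gclc by 0.32 ± 0.09, both of glutathione metabolism.

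The other lists held up to 3 calls each. Autophagy had 1 rise (Atg5, 0.11) and 2 falls (Wipi1, -0.33, and Calcoco1, -0.26) among 15. The p53 targets had 2 falls among 15 (Ccng1, -0.21, and Bbc3, -0.41), the glucocorticoid list 2 among 12 (Per1 and Tsc22d3), the ATF4 list 1 among 20 (Vldlr, -0.86), and CSF1 signalling and lineage factors 1 among 16 (Bach1, -0.15). Of 5 cold-inducible RNA-binding genes Hnrnpdl rose by 0.29. Alternative activation (8 tested), Fc receptors and complement (15), actin and SRF targets (17) and chemokine receptors and motility (14) had 0 calls each by edgeR.

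Of the marker lists for other cells, 1 gene was called, the mast cell protease gene Cpa3, with 0.605, 1.27 and 1.93 CPM at 58 to 62 h and 0.361, 0.714 and 1.12 CPM at 46 to 50 h. It was low in all 18 libraries, and the mast cell genes Mcpt4, Tpsb2 and Prss34 were at 0 in all of them. The lists for fibroblasts and stroma (13 tested), neutrophils (3), T and NK cells (1), B cells (4), dendritic cells (7), erythroid cells and megakaryocytes (4), osteoclasts (5) and endothelium (5) had 0 calls. The stromal list had a median of -0.85 (log2) and course medians of -0.73, -1.89 and 0.51, and its part in the other results was not tested.

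Outside the lists, the largest changes were named from genes with 1 sign in all courses, so that sharing a sign is no result here. Fzd1, a Wnt receptor gene, had 6.59, 8.36 and 9.44 CPM at 58 to 62 h and 2.87, 4.57 and 6.80 CPM at 46 to 50 h, a change of 0.84 ± 0.14 (adjusted p = 0.00266). Slc15a3, a lysosomal peptide transporter gene, changed by 0.70 ± 0.11 and Tmem132a by 0.73 ± 0.13, but their exons overlap on opposite strands and their counts are not independent. Tox2, Megf9, Arap2 and Gpr157 rose by 0.77, 0.77, 0.73 and 0.63. Tgfbi, a secreted matrix protein gene induced by TGF-β, had 20.7, 44.2 and 79.6 CPM at 58 to 62 h and 61.2, 105 and 151 CPM at 46 to 50 h, a change of -1.09 ± 0.20 (adjusted p = 0.00457). Spn, which encodes CD43, and Spata13, a guanine nucleotide exchange factor gene, changed by -1.05 ± 0.28 and -0.95 ± 0.21.

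Across the leave-one-course-out fits, 7 genes were called with all courses and without each in turn: Dbp, Msr1, Nr1d2, Per1 and Tef, and, named after their values were seen, Arhgap25 and Dgke. Arhgap25, a Rac-inactivating protein gene of phagocytes, had 55.1, 59.8 and 66.6 CPM at 58 to 62 h and 43.4, 47.0 and 48.8 CPM at 46 to 50 h, a change of 0.37 ± 0.04 (adjusted p = 3.12e-05). Dgke, a diacylglycerol kinase gene, had 19.0, 20.6 and 23.0 CPM at 58 to 62 h and 15.0, 16.7 and 17.4 CPM at 46 to 50 h, a change of 0.33 ± 0.04 (adjusted p = 0.000271). Neither gene's windows overlapped.

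The time points between the windows show when each group moved. Mean levels of the repressor list, relative to 46 to 50 h, were 0.06 ± 0.15, 0.06 ± 0.09 and -0.14 ± 0.25 at 52, 54 and 56 h and -0.49 ± 0.10 at 58 h (log2, SD, n = 3). Single clock genes turned at different hours. Nr1d1 averaged 17.5 ± 1.38 CPM at 46 h, 11.8 ± 1.06 CPM at 52 h and 7.43 ± 1.74 CPM at 56 h, while Dbp averaged 139 ± 12.3 CPM at 50 h, 104 ± 8.48 CPM at 54 h and 67.2 ± 2.38 CPM at 58 h. Per2 averaged 4.37 ± 0.87 CPM at 46 h, 7.95 ± 2.08 CPM at 52 h and 2.48 ± 0.66 CPM at 62 h. Cry1 averaged 6.16 ± 0.81 CPM at 46 h, 17.1 ± 3.83 CPM at 56 h and 10.3 ± 1.40 CPM at 62 h, so its mean was higher between the windows than at either end. Msr1 averaged 61.2 ± 3.26 CPM at 46 h, 74.5 ± 3.65 CPM at 54 h and 93.7 ± 2.65 CPM at 62 h. Ribosomal protein genes stood at -0.08 ± 0.16, -0.15 ± 0.10 and -0.20 ± 0.08 at 52, 54 and 56 h and at -0.24 ± 0.15, -0.11 ± 0.20 and -0.27 ± 0.17 at 58, 60 and 62 h. At 60 h, where course 2 is 1 of the 3 libraries, the unfolded protein response list stood at 0.49 ± 0.49, with a wider spread than at 58 h (0.10 ± 0.07) and 62 h (0.10 ± 0.11).

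**Figure D4:**
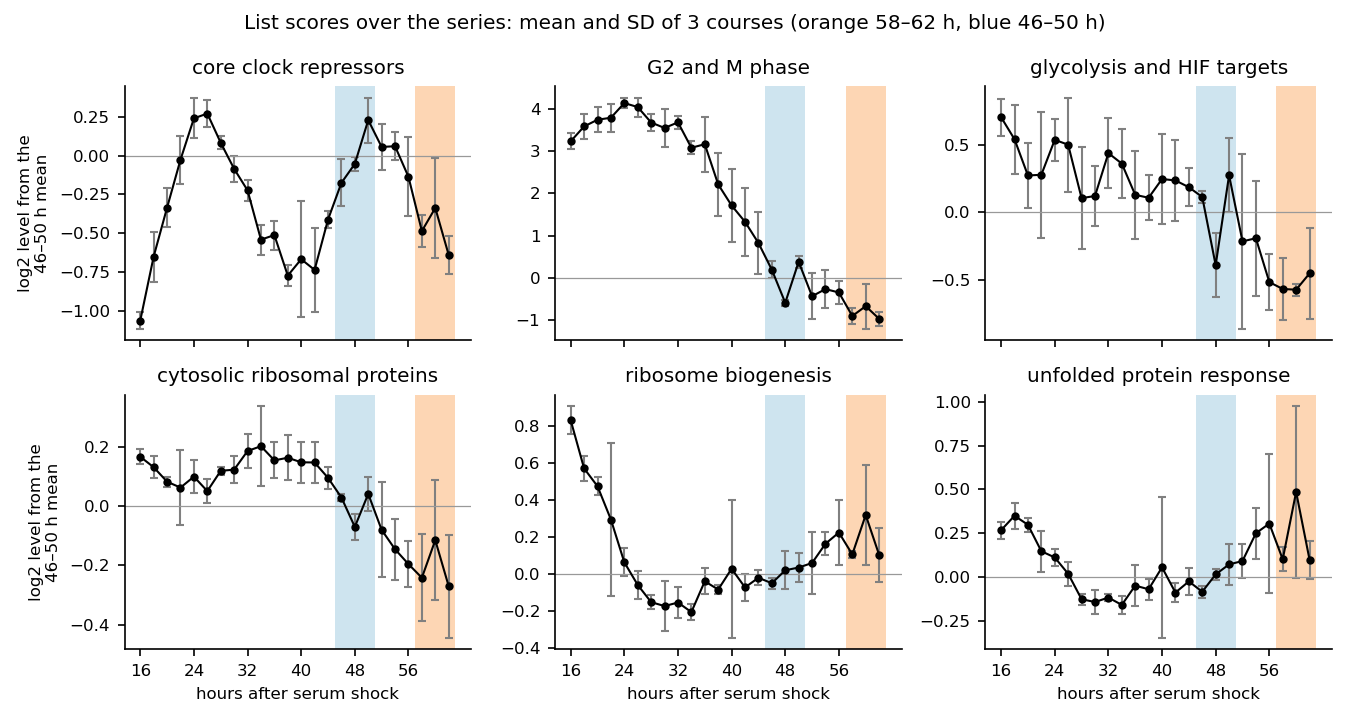
Mean level of 6 gene lists at each of 24 time points (y axis, log2 relative to the mean of the 46 to 50 h libraries; x axis, hours after serum shock), with error bars for the SD of 3 courses, the 58 to 62 h window shaded orange and the 46 to 50 h window blue. The clock repressors reach -0.64 at 62 h, the G2 and M phase list has a low of -0.58 at 48 h, and ribosomal proteins lie below 0 from 52 h on.

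The interval 24 h earlier, 34 to 38 h against 22 to 26 h, stands at the same hours of the preceding cycle and shares no library with the last interval. It held more change, with 8144 of 16321 genes called (49.9%; 4087 rose, 4057 fell), and its log2 changes had an SD over genes of 0.52, against 0.26 in the last interval. Across 15613 genes the changes in the 2 intervals had a Pearson r of 0.00017, given as a description. Of the 1114 genes called in the last interval 734 were called in the earlier one too, 293 in the same direction and 441 in the opposite one. The difference between the changes was tested with all 36 libraries and passed for 6988 of 16321 genes (42.8%) and for 819 of the 1114.

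Clock repressors and division genes fell in both intervals. Nr1d2 had changed by -0.84 ± 0.09 in the earlier one, a difference of 0.10 ± 0.11 in the fit of 36 libraries (log2, last minus earlier, SE; adjusted p = 0.496). For Per1 the difference was -0.08 ± 0.14, for Cry2 0.11 ± 0.15, for Per2 0.30 ± 0.31, for Dbp -0.34 ± 0.18 and for Nr1d1 -0.35 ± 0.17, and none of these passed, which does not show that the changes were equal. Ciart fell less in the last interval, by a difference of 1.22 ± 0.29 (adjusted p = 0.00093). The activator Arntl had changed by 1.43 ± 0.07 in the earlier interval, a difference of -1.09 ± 0.16 (adjusted p = 2.31e-06), and Nfil3 had changed by 1.55 ± 0.11, a difference of -1.10 ± 0.21 (adjusted p = 5.88e-05). Of the G2 and M phase genes 23 of 24 fell in the earlier interval, with a median of -1.05, and 8 of the 24 differed between the intervals. All 15 histone genes fell then, with a median of -2.22, and all 15 differed, as did the 23 tested S phase genes, all of which fell then with a median of -2.03.

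Other genes differed between the intervals in size or in direction. Msr1 had changed by -2.42 ± 0.23 in the earlier interval, a difference of 2.98 ± 0.23 (adjusted p = 4.12e-11), and Cd36 by -2.16 ± 0.14, a difference of 2.70 ± 0.22 (adjusted p = 4.12e-11). The splicing factor gene Srsf3 and the prothymosin gene Ptma had changed by -0.98 ± 0.08 and -0.95 ± 0.07 in the earlier interval. In the last interval Srsf3 changed by 0.36 ± 0.06, and Ptma differed by 0.16 ± 0.05 without passing (adjusted p = 0.0571). Trip4, a transcription coactivator gene, and Tk1, thymidine kinase, had changed by -1.78 ± 0.13 and -2.82 ± 0.20 and differed by -0.05 ± 0.04 and -0.25 ± 0.09 in the last interval without passing. Atrnl1, an attractin-like membrane protein gene, had changed by 1.47 ± 0.12 and changed by -0.37 ± 0.09 in the last interval. Of 25 ribosomal protein genes 11 rose and 2 fell in the earlier interval (median 0.12), and 20 differed. Of 20 ribosome biogenesis genes 0 rose and 9 fell then (median -0.18), and 16 differed. In the glycolysis and HIF list 2 rose and 9 fell of 21 (median -0.30), and 12 differed, among them Gpi1, at -0.04 ± 0.11 then, and Bnip3, at -0.01 ± 0.23.

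**Figure D5:**
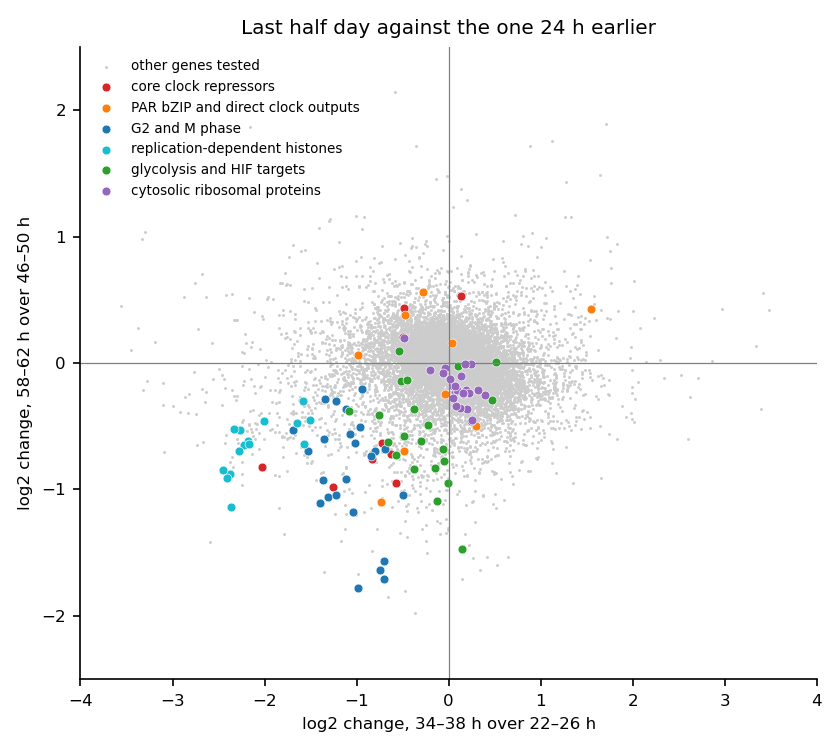
Log2 change of each gene tested in the last interval (y axis, 58 to 62 h over 46 to 50 h) against that 24 h earlier (x axis, 34 to 38 h over 22 to 26 h), with members of 6 lists coloured and 1 gene outside the axes. The points form no diagonal (r = 0.00017), division genes lie in the lower left, and glycolysis genes lie mostly below 0 on the y axis, 19 of 21, with x values on both sides of 0.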

How the data were processed

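Read pairs had been aligned and counted per gene by the authors before deposit, with DRAGEN and HTSeq named in the submitters' processing notes together with GRCm38 and mm10. Versions, annotation release and the strand setting are not among the sources used here. Each deposited file holds whole-number counts for 49568 genes and 5 summary lines that name no gene, which were left out. In the 18 libraries of the 2 windows, reads in no feature were 31.95 to 36.61% of the total, reads with more than one alignment 19.55 to 29.02% and ambiguous reads 1.3 to 1.72%. At the median depth of these libraries 1 CPM stands for 56.8 counts, which limits the precision of genes at low CPM.

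Genes that passed filterByExpr by window were scaled with TMM and tested with edgeR's quasi-likelihood test (edgeR 4.0.16 in R 4.3.3), 9 libraries against 9 and without covariates, and p-values were adjusted over all 15614 genes by the Benjamini-Hochberg method with a threshold of 0.05. Standard errors are the log2 change divided by the square root of F. CPM were scaled by TMM over all 72 libraries, and log2 CPM used a prior count of 2. The earlier interval was fitted in the same way, the difference between the intervals in 1 fit of 36 libraries, and the difference between courses as an interaction. List levels are means of log2 CPM over members, and lists are described by counts and medians without a set test. The pipeline was tested on simulated counts.

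The windows, the 47 gene and marker lists and the naming rule were chosen with earlier results of these data known. Named genes were the 14 largest rises and 14 largest falls among genes called both with all libraries and without course 2 at 60 h and course 1 at 62 h, with 1 sign in all courses and a mean of at least 5 CPM in a window; the tested members of the 3 clock lists; up to 4 called members of smallest p from each other list; the 8 genes of smallest p for the difference between intervals; and up to 5 for the difference between courses, of which there were 0. Predicted genes, clones and pseudogenes were passed over. Vegfa, Hk2, Hspa5, Tnf, Nfkb2, Nfkbia, Mki67, Arhgap25 and Dgke were named after their values were seen. Results for 3 of the genes under the rule are not reported here.

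Alternatives were DESeq2 1.42.0 with its own size factors, its scaling in edgeR, no filter, the course as a replicate block, leaving out libraries or courses, sums per course and window, each course alone, all 72 libraries in 1 fit and blocks of time points 12 h apart. Promoters are RefSeq sequences of GRCm38.p6, found for 88 of the 118 named genes, and gene positions and exon overlaps are from GENCODE vM21.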

Additional observations from a re-analysis of the deposited data

Results flagged for a closer look

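Of 232 groups of 9 libraries examined with Dixon's test (critical value 0.493), 40 held a library far from the other 8, where chance gives about 1 in 20, or 11.6. Course 2 at 60 h was that library 25 times and course 2 at 50 h 5 times.

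Course 2 at 60 h stood apart by its distance from the window median (0.8244) and was the highest of 58 to 62 h in Arap2 (76.06 CPM), Cd36 (286.5 CPM), Ciart (2.543 CPM), Clock (102.9 CPM), Cry1 (20.7 CPM), Dnaja1 (74.85 CPM), Dnajc3 (215.2 CPM), Gclc (25.51 CPM), Hnrnpdl (55.13 CPM), Hsp90b1 (844.0 CPM), Hyou1 (464.3 CPM), Klf9 (6.253 CPM), Msr1 (113.3 CPM), Mylip (145.2 CPM), Nop56 (30.24 CPM), Pdia3 (155.3 CPM), Pdia6 (455.3 CPM), Relb (41.0 CPM), Srm (22.8 CPM) and Wee1 (29.12 CPM). It was the lowest in Fbxl21 (0.3335 CPM), Fdft1 (278.9 CPM), Nr1d1 (4.565 CPM) and Tk1 (3.585 CPM).

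Elsewhere at 58 to 62 h, course 1 at 62 h was highest in Ankrd37 (11.53 CPM) and lowest in Cpa3 (0.605 CPM), and course 1 at 60 h was highest in Kif11 (6.901 CPM) and Ube2c (2.285 CPM). At 46 to 50 h, course 2 at 50 h was highest in Bhlhe41 (237.2 CPM), Gpr157 (47.22 CPM) and Nampt (278.3 CPM) and lowest in Arntl (15.14 CPM) and Tgfbi (61.17 CPM). Course 2 at 48 h was lowest in Cdkn2c (31.01 CPM) and Npas2 (0.912 CPM), and course 2 at 46 h in Tox2 (1.577 CPM). Course 1 at 50 h was highest in Polr1a (26.75 CPM), course 3 at 50 h lowest in Fbl (4.996 CPM) and course 3 at 48 h lowest in Ppargc1b (2.35 CPM).

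Of 32 genes examined for a difference between the change of the last interval and that of the interval 24 h earlier, 16 differed by the interaction test in edgeR. Over all 16321 genes tested, 6988 (42.8%) differed. The difference (log2, last minus earlier) was above 0 for Msr1 (2.98), Cd36 (2.70), Tk1 (2.59), Trip4 (1.75), Srsf3 (1.36), Ciart (1.22), Ptma (1.13), Wee1 (1.07), Bhlhe41 (0.95) and Por (0.88). It was below 0 for Atrnl1 (-1.82), Nfil3 (-1.10), Arntl (-1.09), Tsc22d3 (-0.77), Csnk1e (-0.35) and Csnk1d (-0.20). Msr1, Cd36, Tk1, Trip4, Srsf3, Ptma and Atrnl1 were chosen for that difference by the same test, so that their passing is no result here.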

How the results depend on the processing

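Against 515 rises and 599 falls, DESeq2 called 828 and 911, no filter on low counts 215 and 375, leaving out course 2 at 60 h and course 1 at 62 h 956 and 1110, leaving out course 1 at 62 h alone 960 and 945, and course 3 alone 1102 and 1386. Sums per course and window gave 1 and 6, and courses 1 and 2 alone 0 and 0. Without course 2 at 50 h and at 60 h there were 819 rises and 890 falls, and without the 3 libraries at 48 h 281 and 528, both chosen after seeing the data. Leaving out 1 course in turn gave 4 to 480 rises and 4 to 635 falls, and for the earlier interval 2650 to 3452 rises and 3236 to 4034 falls. For the difference between intervals it gave 2501 to 3719 genes above 0 and 1783 to 3186 below 0. The difference between courses had 23 calls without the filter and 0 otherwise. The causes of these shifts were not tested, and each fit that leaves libraries out also holds fewer of them.

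With the course number as a replicate block there were 741 rises and 756 falls, and with sums and the block 403 and 422. The labels give each library a time course number but no animal or batch, and the main fit did not use the number. Differences between courses therefore count as spread in that fit. Over both windows, reads with more than one alignment were 19.55 to 23.79% in course 3 and 24.69 to 29.02% in courses 1 and 2. Deviations of same-numbered courses correlated at 0.425, 0.24 and 0.061, and those of unlike-numbered courses at -0.365 to 0.076. Whether the numbers mark pairs was not tested. Of the 118 named genes, 99 were called, of which 0 changed sign in these fits. Of the 19 not called, 5 changed sign, with 0 calls. Bhlhe40 was at -0.34 (log2) without course 2 at 60 h and course 1 at 62 h, -0.43 without course 2 at 60 h, -0.0205 with sums and the block, -0.76 in course 3 alone, -0.22 without course 2 at 50 h and at 60 h, -0.0414 without 48 h and -0.33 to 0.52 over the fits without 1 course. Wee1 was in the same order at -0.14, -0.20, -0.0278, -0.23, -0.0574, -0.0903 and -0.20 to 0.18, and at -0.16 in course 1 alone. Rora was at 0.0826 in course 2 alone and -0.20 to 0.001 without 1 course, Nampt at -0.0045 without course 2 at 60 h and -0.0114 in course 3 alone, and Trip4 at 0.0873 in course 1 alone. Calls were lost for 94 without course 3, 48 without course 1, 17 without course 2, 93 with sums and 32 without the filter, and for 0 with DESeq2. No scaling moved the median of all genes by over 0.1 on the log2 scale. These scalings place the typical gene near no change by design, so that median cannot show a shift shared by most genes. At 56.8 counts per CPM, genes near 1 CPM carry the widest counting error.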

Other observations

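Further gene families, chosen after the list results were seen, are described by their counts over the same test. Of 80 tested genes of cytosolic ribosomal proteins, 32 fell and 0 rose, with a median of -0.21 (log2, 58 to 62 h over 46 to 50 h) and course medians of -0.13, -0.11 and -0.40. Of 6 translation elongation factor genes 4 fell and 0 rose (median -0.27), Eef2, Eef1d, Eef1a1 and Eef1b2, and of 14 subunits of the initiation factor eIF3 5 fell and 0 rose (median -0.05). Mitochondrial ribosomal proteins, made for translation inside the organelle, had 3 rises and 2 falls among 75 (median 0.05). Over all genes tested there were 515 rises and 599 falls with a median of 0.01.

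Of 10 SR splicing factor genes 5 rose and 0 fell (median 0.15), Srsf2, Srsf3, Srsf6, Srsf7 and Srsf10, and of 38 proteasome subunits 4 rose and 0 fell (median 0.07). Of 12 tested H2B histone genes of the Hist1 cluster 10 fell (median -0.55), and of 30 kinesins 6 fell, Kif2c, Kif11, Kif14, Kif15, Kif18b and Kif20a (median -0.08), several of which act in the mitotic spindle.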
